A study of Mus musculus with 36 samples.

Results

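A set of 10 regulators of the apical ectodermal ridge and of the limb surface ectoderm were followed through the mouse forelimb at E12.5, midway through gestation. They are the growth factor genes Fgf8, Fgf4, Fgf9 and Fgf17, the transcription factor genes Sp6, Sp8 and Bhlha9, the dorsal signal Wnt7a, the ventral factor En1, and Edar, the receptor for ectodysplasin. The genes were taken by symbol from the deposited FPKM table and joined by Ensembl identifier to the deposited count table, where all 10 were found among 50833 genes. RNA-seq was made from dissected distal forelimb (the future hand) and proximal forelimb (the future arm), each library from the pair of limbs of a single embryo. The 5 alleles, made with CRISPR/Cas9, lack a growing number of binding sites for CTCF, a protein that shapes chromatin loops, at the Hoxd cluster. They are Del(CBS1), which lacks 1 site, Del(CBS1-2), which lacks 2, Del(CBS1-3), which lacks 3, Del(CBS1-4), which lacks 4, and Del(CBS1-5), which lacks 5, and they were set beside wild type (WT). Each of these 6 genotypes is represented by 3 libraries per tissue, 36 in all. All carry the B6CBAF1 strain label, zygosity is not given in the labels, and none of the 10 genes lies on the chromosome of the Hoxd cluster. No cells were sorted, so ectoderm is a small share of each library beside mesenchyme, cartilage and, in the arm, muscle.

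The apical ectodermal ridge is a rim of thickened ectoderm along the tip of the limb bud, and the FGF ligands it secretes keep the mesenchyme beneath it growing. Fgf8 is transcribed along the ridge, Fgf4, Fgf9 and Fgf17 mainly in its posterior part, and Fgf4 is known to be lost from the ridge before Fgf8. Sp6 and Sp8 encode zinc finger factors that ridge formation needs, and BHLHA9 is a basic helix-loop-helix factor of the ridge. WNT7A from the dorsal ectoderm and EN1 in the ventral ectoderm set the dorsal and ventral sides of the limb, and EN1 keeps Wnt7a out of the ventral side. EDAR, a receptor of the tumour necrosis factor family, is best known from ectodermal appendages such as hair follicles.

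The genes are given on mm10 as the deposited table places them, and each model has the same ends in GENCODE vM21. Fgf8 is at chr19:45736798-45742915 on the minus strand, Fgf4 at chr7:144847367-144865243 on the plus strand, Fgf9 at chr14:58070547-58112720 on the plus strand and Fgf17 at chr14:70636203-70642268 on the minus strand. Sp6 is at chr11:97013394-97024734, Sp8 at chr12:118846329-118852576 and Bhlha9 at chr11:76672470-76673676, all on the plus strand. Wnt7a is at chr6:91363981-91411363 on the minus strand, En1 at chr1:120602418-120607992 on the plus strand and Edar at chr10:58600789-58675654 on the minus strand. The models of Fgf9 and Sp6 are each overlapped by a gene on the opposite strand, the pseudogene Gm17109 within Fgf9 and the noncoding transcript Gm11532 over the end of Sp6. The sources used here do not give the strand setting of the counting, so these pairs may share reads. The model of Fgf4 begins 14019 bases before the RefSeq start, so its counts may hold transcripts from outside the RefSeq gene.

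Upstream sequences are shown for the 3 genes with the largest excess in distal tissue, Sp8, Bhlha9 and Edar, and for Wnt7a, whose excess is small in every genotype. They are RefSeq sequences of the GRCm38.p6 build (mm10), read 5′ to 3′ on the strand of the gene and ending before the first base of the gene in both RefSeq and the deposited models. Sp8 is shown over chr12:118846079-118846287 (plus strand), Bhlha9 over chr11:76672220-76672469 (plus strand), Edar over chr10:58675697-58675946 (minus strand) and Wnt7a over chr6:91411364-91411603 (minus strand). Capitals mark matches, on either strand, to the GC box GGGCGG that Sp factors bind, to the core CTTTGA of TCF and LEF factors, and to TATAAA.
Sp8: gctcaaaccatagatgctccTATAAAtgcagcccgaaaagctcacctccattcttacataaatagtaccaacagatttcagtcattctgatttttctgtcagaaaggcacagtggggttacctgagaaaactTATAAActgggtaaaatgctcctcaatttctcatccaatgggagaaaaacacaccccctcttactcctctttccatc
Bhlha9: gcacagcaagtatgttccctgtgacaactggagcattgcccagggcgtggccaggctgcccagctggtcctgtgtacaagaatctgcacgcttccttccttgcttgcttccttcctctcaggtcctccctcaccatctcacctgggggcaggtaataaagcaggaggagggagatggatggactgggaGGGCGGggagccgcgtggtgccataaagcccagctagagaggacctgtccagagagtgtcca
Edar: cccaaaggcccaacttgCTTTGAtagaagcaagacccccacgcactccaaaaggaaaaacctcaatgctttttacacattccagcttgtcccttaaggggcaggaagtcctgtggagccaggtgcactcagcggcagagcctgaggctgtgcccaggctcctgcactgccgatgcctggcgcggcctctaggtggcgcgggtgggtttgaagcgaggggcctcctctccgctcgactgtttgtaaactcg
Wnt7a: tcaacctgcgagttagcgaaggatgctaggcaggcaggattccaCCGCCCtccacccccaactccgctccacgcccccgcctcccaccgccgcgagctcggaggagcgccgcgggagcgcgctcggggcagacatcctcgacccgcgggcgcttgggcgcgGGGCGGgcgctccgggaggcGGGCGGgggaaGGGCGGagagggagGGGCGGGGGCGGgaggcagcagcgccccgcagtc
Over the 250 bases before the start used in the RefSeq table, Sp8 holds TATAAA at positions -230 and -118, Bhlha9 1 GC box at -62, and Edar 1 CTTTGA at -233. Wnt7a holds 6 GC boxes in that window, of which those at -44 and -38 abut. The GC content of the window was 40.8% for Sp8, 59.2% for Bhlha9, 58.8% for Edar and 77.6% for Wnt7a, beside a median of 52.4% over 32851 upstream windows. Of those windows, 32.7% hold a GC box, 13.8% CTTTGA and 12.4% TATAAA, so each of these matches is common. Of the 10 genes, 7 have an entry in this table, and the matches are a description of letters and not of bound sites.

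The libraries held 11062069 to 17727891 counts each. No replicate pair was as alike as repeated sampling of 1 library would be, with a chi-square of 2.66 to 21.2 per degree of freedom. The dissection was checked with marker lists: the 6 distal mesenchyme genes summed to 2450 to 2946 CPM in distal and 868 to 1309 CPM in proximal libraries, and the 10 muscle genes to 13.2 to 90.3 CPM in distal and 1186 to 2133 CPM in proximal libraries. CPM are read counts relative to library size, scaled by the TMM method over all 36 libraries. The surface ectoderm list was present in all libraries, with none of its 13 genes at 0, and summed to 588 to 833 CPM in distal and 448 to 704 CPM in proximal tissue. One library, proximal WT replicate 2, stood apart from the other proximal WT libraries in several of the 10 genes and had the highest distal mesenchyme sum of the 18 proximal libraries (1309 CPM, against 950 and 1073 CPM in the other proximal WT libraries). For 6 of the genes the WT tissue values are given with and without it.

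All 10 genes were transcribed at low level in the whole tissue, as FPKM values (fragments scaled for transcript length and depth, which allow genes to be compared) show. In distal WT tissue Fgf8 was highest, with 5.46 ± 0.997 FPKM (SD, n = 3), followed by Bhlha9 with 4.30 ± 0.985 FPKM. Sp6, Wnt7a, Fgf9 and Edar came next at 3.00 to 2.22 FPKM, then En1 with 1.71 ± 0.252 and Sp8 with 1.5 ± 0.175 FPKM. Fgf17 had 0.236 ± 0.0964 FPKM and Fgf4 0.00990 ± 0.00861 FPKM. In this order the libraries of neighbouring genes overlapped except between Bhlha9 and Sp6, between Edar and En1, between Sp8 and Fgf17, and between Fgf17 and Fgf4. The order in proximal WT tissue was different: Fgf9 was highest with 4.63 ± 0.687 FPKM, ahead of Fgf8, Wnt7a and En1 at 1.74 to 1.47 FPKM. Sp6 had 0.620 ± 0.250 FPKM there and Fgf4 0.427 ± 0.119 FPKM. Fgf17, Edar, Bhlha9 and Sp8 lay between 0.321 and 0.245 FPKM, and their libraries overlapped.

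**Figure D1:**
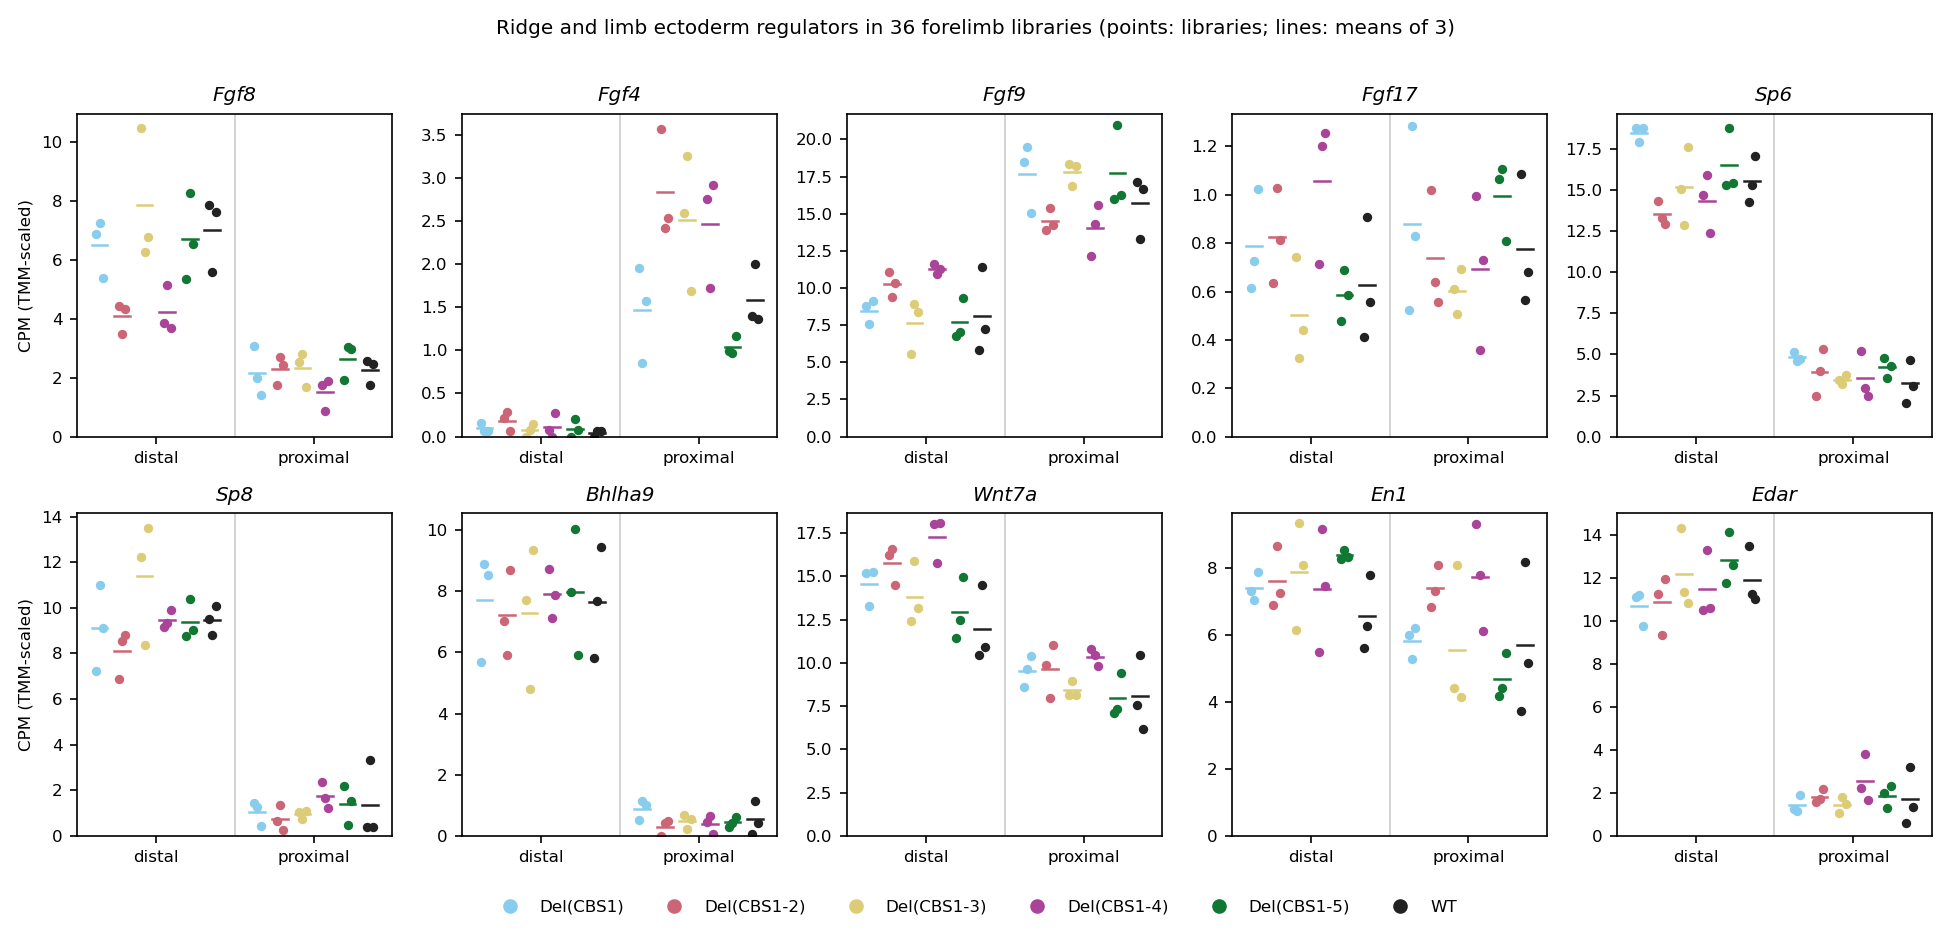
Level of each of the 10 genes in every library, in TMM-scaled CPM (vertical axes start at 0), for distal and proximal forelimb and 6 genotypes; points are libraries and lines the means of 3. Fgf8, Sp6, Sp8, Bhlha9 and Edar are higher in all 18 distal than in all 18 proximal libraries, and Fgf4 and Fgf9 lower. The share of all genes separated in this way was not determined.

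The first question was how the genes are divided between the future hand and the future arm. In WT, 5 of the 9 genes tested were higher in distal than in proximal tissue (Fgf8, Sp6, Sp8, Bhlha9 and Edar) and 2 were lower (Fgf4 and Fgf9). Over all genes tested in WT, 30.7% were called in either direction, 13.6% higher and 17.1% lower. The median log2 fold change of the 9 genes was 1.64, beside 0.005 over all genes. Wnt7a and En1 did not pass the test in WT, and Fgf17 lay under the count filter. Every test here is edgeR's quasi-likelihood test with Benjamini-Hochberg adjustment over all genes, and a gene is called at an adjusted p under 0.05. A smaller share of cells of a type and less RNA per cell cannot be told apart in such bulk samples.

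Of the ridge ligands, Fgf8 had 7.86, 5.59 and 7.61 CPM in distal WT libraries, against 2.56, 1.75 and 2.45 CPM in proximal WT libraries. Its groups did not overlap in WT, and the log2 fold change was 1.64 ± 0.24 (SE, adjusted p = 0.00123). The other genotypes had the same direction, from 0.81 ± 0.23 in Del(CBS1-2) to 1.72 ± 0.27 in Del(CBS1-3), each called. Over all 18 distal libraries Fgf8 ran from 3.48 to 10.5 CPM with a median of 5.93, against 0.860 to 3.07 CPM with a median of 2.21 in the 18 proximal libraries. It was therefore present in proximal tissue too, with 12 to 47 counts in every proximal library.

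Fgf4 was on the opposite side. It was counted 0, 1 and 1 times in distal WT libraries, against 18, 32 and 20 times in proximal WT libraries. The distal rate in WT was 2.79% of the proximal rate, with an exact 95% counting interval of 0.332% to 10.5%. Each of the other genotypes gave 3 to 9 distal counts, against 41 to 124 proximal counts, summed over 3 libraries. All 18 distal libraries together held 27 counts and all 18 proximal libraries 497, a rate of 5.18% (3.38% to 7.63%; these intervals cover counting error only). Fgf4 was called lower in all 6 genotypes (adjusted p = 3.64e-06 to 0.00184). In the mouse embryo Fgf4 is also known from developing skeletal muscle, and the muscle genes, whose sums are given above, differed between the tissues in the same direction; their part in the Fgf4 difference was not tested.

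Fgf9, a ligand of the ridge that mouse myoblasts also make, had 5.81, 11.4 and 7.24 CPM in distal WT libraries, against 17.2, 13.3 and 16.7 CPM in proximal WT libraries. The distal libraries lay below the proximal ones in WT, with a log2 fold change of -0.95 ± 0.24 (adjusted p = 0.0159). This call was lost when distal WT replicate 3 (-0.88, adjusted p = 0.0556), proximal WT replicate 1 (-0.88, adjusted p = 0.0556) or proximal WT replicate 3 (-0.91, adjusted p = 0.0553) was left out. In the alleles Fgf9 fell by 1.07 ± 0.13 in Del(CBS1), 0.51 ± 0.11 in Del(CBS1-2), 1.24 ± 0.18 in Del(CBS1-3) and 1.22 ± 0.16 in Del(CBS1-5) on the log2 scale. In Del(CBS1-4) the change was -0.32 ± 0.13 and did not pass (adjusted p = 0.0713). All 18 distal libraries (5.56 to 11.6 CPM, median 9.03) lay below all 18 proximal libraries (12.1 to 21.0 CPM, median 16.1). The share of all genes separated in this way was not determined. As for Fgf4, the part of the muscle genes in the Fgf9 difference was not tested.

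Fgf17 was near the limit of detection, with 4 to 18 counts in distal and 5 to 18 counts in proximal libraries. It was tested in 4 alleles and called in none of them (log2 fold changes between -0.78 ± 0.38 in Del(CBS1-5) and 0.60 ± 0.43 in Del(CBS1-4)). Distal tissue was higher in 8 of 18 embryos and lower in 10, so no difference between the tissues was detectable at this depth.

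The 3 ridge transcription factors were all higher in distal tissue. Sp6 had 14.3, 15.3 and 17.1 CPM in distal WT libraries, against 2.02, 4.63 and 3.06 CPM in proximal WT libraries. Without proximal WT replicate 2, the highest of the proximal WT libraries, its WT log2 fold change was 2.59 ± 0.22 (adjusted p = 0.000196). With all libraries the change of 2.24 ± 0.26 in WT (adjusted p = 0.000292) had counterparts between 1.75 ± 0.19 in Del(CBS1-2) and 2.12 ± 0.17 in Del(CBS1-3), all called. Across genotypes Sp6 was thus 3.38 to 4.74 times higher in distal than in proximal tissue, the narrowest span among the genes that were higher by more than 3-fold in WT.

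Sp8 had 139, 126 and 163 counts in distal WT libraries, against 5, 53 and 6 counts in proximal WT libraries. The value of 53 counts, in proximal WT replicate 2, lay far above the other proximal WT libraries and above all 15 proximal libraries of the alleles, which held 4 to 31 counts. Without that library the WT log2 fold change of Sp8 was 4.53 ± 0.28 (adjusted p = 3.44e-05), against 2.73 ± 0.63 (adjusted p = 0.0108) with it. In the alleles it ran from 2.42 ± 0.22 in Del(CBS1-4) to 3.55 ± 0.26 in Del(CBS1-3), all called.

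Bhlha9 differed most among the genes that were higher in distal tissue. It had 85, 110 and 153 counts in distal WT libraries, against 1, 18 and 6 counts in proximal WT libraries, where replicate 2 was again the highest. Leaving that library out gave a log2 fold change of 4.87 ± 0.52 (adjusted p = 0.000547), against 3.75 ± 0.54 (adjusted p = 0.000994) with it. The alleles gave 3.12 ± 0.30 in Del(CBS1) to 4.46 ± 0.40 in Del(CBS1-2), all called. Proximal levels were at most 1.14 CPM, and 1 of the 18 proximal libraries had no count of Bhlha9.

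Edar had 13.5, 11.3 and 11 CPM in distal WT libraries, against 0.621, 3.19 and 1.36 CPM in proximal WT libraries. The highest of the proximal values again belonged to replicate 2. The WT log2 fold change was 3.55 ± 0.32 (adjusted p = 0.000237) without that library and 2.75 ± 0.43 (adjusted p = 0.00151) with it. Among the alleles it was smallest in Del(CBS1-4), with 2.14 ± 0.26, and largest in Del(CBS1-3), with 3.05 ± 0.23, and it was called in each.

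The pair that sets dorsal and ventral sides was more evenly spread. Wnt7a had 10.5, 14.5 and 10.9 CPM in distal WT libraries, against 7.53, 10.5 and 6.2 CPM in proximal WT libraries. The WT change of 0.56 ± 0.22 on the log2 scale did not pass the test (adjusted p = 0.0848). It passed with the embryo as a block, which pairs the distal and proximal library of an individual (0.58 ± 0.14, adjusted p = 0.00884), and without proximal WT replicate 2 (0.79 ± 0.21, adjusted p = 0.0288). In the 5 alleles Wnt7a was called higher in distal tissue by 0.60 to 0.73. Wnt7a was higher in the distal tissue of 18 of 18 embryos.

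En1 had 5.61, 6.29 and 7.79 CPM in distal WT libraries, against 3.73, 8.20 and 5.17 CPM in proximal WT libraries, and these groups overlapped. Its WT log2 change was 0.20 ± 0.29 (95% interval -0.37 to 0.76). That value rested on single libraries: it was 0.55 ± 0.25 (adjusted p = 0.165) without proximal WT replicate 2, -0.03 ± 0.26 (adjusted p = 0.959) without proximal WT replicate 1 and 0.05 ± 0.33 (adjusted p = 0.940) without distal WT replicate 3, none of them called. In Del(CBS1-5) En1 was higher in distal tissue, with 8.26, 8.54 and 8.35 CPM, against 4.19, 4.43 and 5.47 CPM in proximal tissue (0.83 ± 0.16, adjusted p = 0.00183). The other alleles gave values between -0.08 ± 0.22 and 0.48 ± 0.28, none called, although Del(CBS1-3) was called with the embryo as a block (0.51 ± 0.18, adjusted p = 0.0410) and without its proximal replicate 2 (0.85 ± 0.23, adjusted p = 0.0269). The difference of the tissue effect between Del(CBS1-5) and WT itself did not pass (0.65 ± 0.34, adjusted p = 0.857).

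Across the alleles the counts were read against all genes tested. The genes were chosen with earlier results of these data known, so the shares here and in WT are descriptions. In Del(CBS1) 8 of 10 genes were called, 6 higher and 2 lower, beside 36.1% of all genes (16.5% higher and 19.7% lower). In Del(CBS1-2) 8 of 10 were called, 6 higher and 2 lower, beside 50.7% (24.8% and 25.9%). In Del(CBS1-3) 8 of 9 were called, 6 higher and 2 lower, beside 34.2% (15.9% and 18.3%). In Del(CBS1-4) 7 of 10 were called, 6 higher and 1 lower, beside 38.6% (17.8% and 20.8%), and in Del(CBS1-5) 9 of 10, 7 higher and 2 lower, beside 40.4% (19.4% and 21%). Fgf8, Sp6, Sp8, Bhlha9 and Edar were called higher and Fgf4 lower in all 6 genotypes. The surface ectoderm markers also differed, with 10 of 20 called higher and 2 lower in distal WT tissue and a median log2 fold change of 0.52, and their part in the excess of the 5 genes was not tested.

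**Figure D2:**
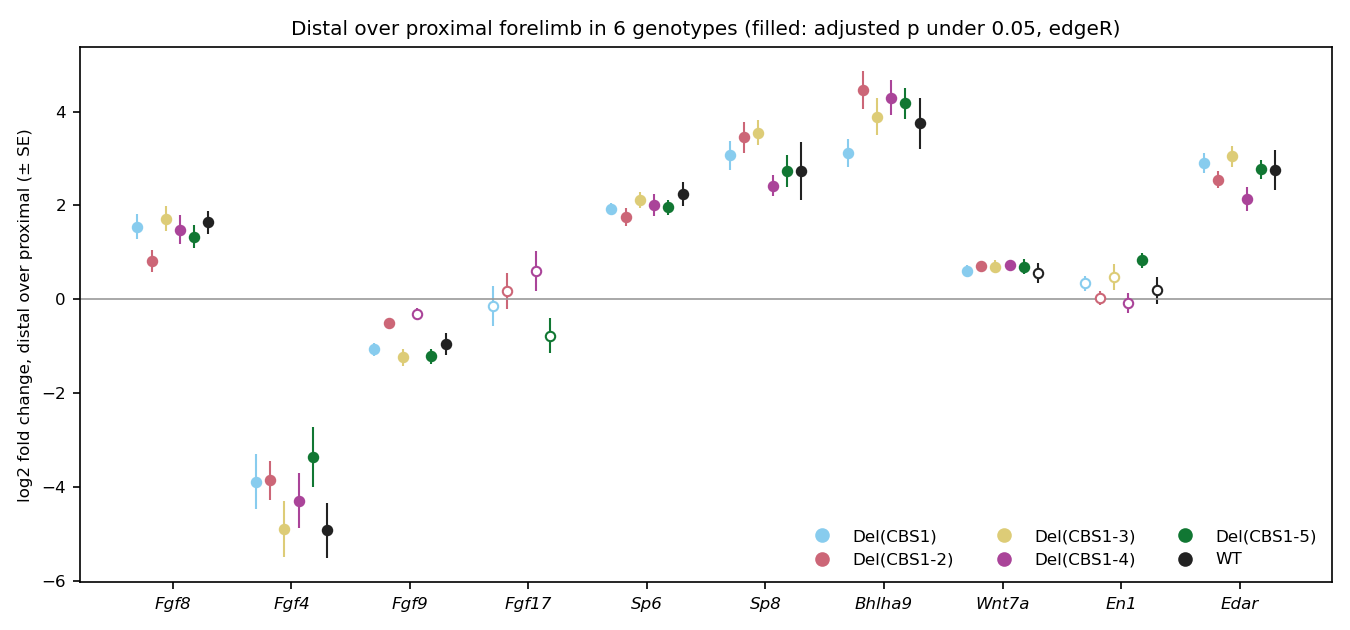
Log2 fold change of distal over proximal forelimb for each gene in the 6 genotypes; points are estimates, bars 1 SE, filled points have an adjusted p under 0.05 in edgeR's quasi-likelihood test, and Fgf17 is absent where it was not tested. Sp8, Bhlha9 and Edar lie between 2.14 and 4.46, Wnt7a between 0.56 and 0.73, and Fgf4 between -4.93 and -3.36.

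The second question was whether the loss of CTCF sites at the Hoxd cluster changed these genes, and few calls were made. All comparisons of alleles within a tissue share the same 3 WT libraries. In distal tissue Fgf8 in Del(CBS1-2) was the only call among 9 genes tested in each of 5 alleles. Fgf4 lay under the count filter in distal tissue. The background of calls over all genes was 10.5% in distal Del(CBS1-2) (4.47% higher and 5.99% lower), 0.0325% in Del(CBS1), 0.00651% in Del(CBS1-3), 0.0846% in Del(CBS1-4) and 0.0651% in Del(CBS1-5). At an unadjusted p under 0.05, edgeR gave 1 of 9 genes in Del(CBS1) (beside 9.69% of all genes), 2 in Del(CBS1-2) (26.6%), 0 in Del(CBS1-3) (13.9%), 3 in Del(CBS1-4) (15.3%) and 0 in Del(CBS1-5) (13.1%). DESeq2, which gave 8 or 9 of the genes an adjusted p, called 1 gene in Del(CBS1-2) and 1 in Del(CBS1-4). On FPKM, where 8 of the genes passed the filter, limma called 1 in Del(CBS1-2), and neither tool called any in the other alleles. The share of 1 in 9 in Del(CBS1-2) is close to the background of that allele.

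Fgf8 had 4.43, 3.48 and 4.32 CPM in distal Del(CBS1-2) libraries, against 7.86, 5.59 and 7.61 CPM in distal WT libraries. The groups did not overlap, and Fgf8 fell by 0.81 ± 0.22 on the log2 scale (adjusted p = 0.0293). In distal Del(CBS1-4) Fgf8 had 3.86, 5.16 and 3.69 CPM, which is also below every distal WT library, but the change of -0.74 ± 0.23 did not pass (adjusted p = 0.129). Del(CBS1), Del(CBS1-3) and Del(CBS1-5) gave -0.12 ± 0.22, 0.15 ± 0.22 and -0.08 ± 0.22, with groups that overlapped WT. Ranked by mean, distal Fgf8 was highest in Del(CBS1-3) with 7.84 CPM, ahead of WT with 7.02 CPM. Del(CBS1-5) with 6.70 CPM, Del(CBS1) with 6.50 CPM, Del(CBS1-4) with 4.24 CPM and Del(CBS1-2) with 4.08 CPM came after them, and the only neighbours in that order without overlap were Del(CBS1) and Del(CBS1-4). The level therefore did not follow the number of sites removed.

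The call of Fgf8 in Del(CBS1-2) was not firm. It was lost when any of 5 of the 6 libraries was left out (log2 change -0.70 to -0.87, adjusted p = 0.0610 to 0.124) and kept without distal WT replicate 2 (-0.95 ± 0.24, adjusted p = 0.0275). Surface ectoderm markers summed to 711 to 833 CPM in distal Del(CBS1-2) and 705 to 736 CPM in distal Del(CBS1-4), against 596 to 625 CPM in distal WT. In these alleles they lay on the other side from Fgf8. Distal Del(CBS1-3), which had the highest mean Fgf8, also lay above WT in ectoderm markers (642 to 714 CPM). Del(CBS1) had 625 to 748 CPM and Del(CBS1-5) 588 to 698 CPM, and both overlapped WT. Cartilage markers summed to 2378 to 2456 CPM in distal Del(CBS1-2) and 2091 to 2465 CPM in distal Del(CBS1-4), against 1710 to 1925 CPM in distal WT, and muscle markers to 48.1 to 90.3 CPM in distal Del(CBS1-2) and 29.5 to 89.8 CPM in distal Del(CBS1-4), against 23.1 to 26.8 CPM in distal WT. Erythroid markers lay on the same side as Fgf8, with 1800 to 1841 CPM in distal Del(CBS1-2) and 1668 to 2031 CPM in distal Del(CBS1-4), against 2169 to 2637 CPM in distal WT, and their part was not tested. With the mean level of the surface ectoderm markers as a covariate the Fgf8 change was -0.59 ± 0.32 (adjusted p = 0.527), and with that of the muscle markers -0.69 ± 0.27 (adjusted p = 0.216). In log2 CPM the mean ectoderm level was 4.90 to 5.04 in distal Del(CBS1-2), against 4.74 to 4.81 in distal WT. The mean muscle level was 1.80 to 2.46, against 0.838 to 1.09. Neither overlapped, so these fits cannot separate the marker level from the genotype.

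**Figure D3:**
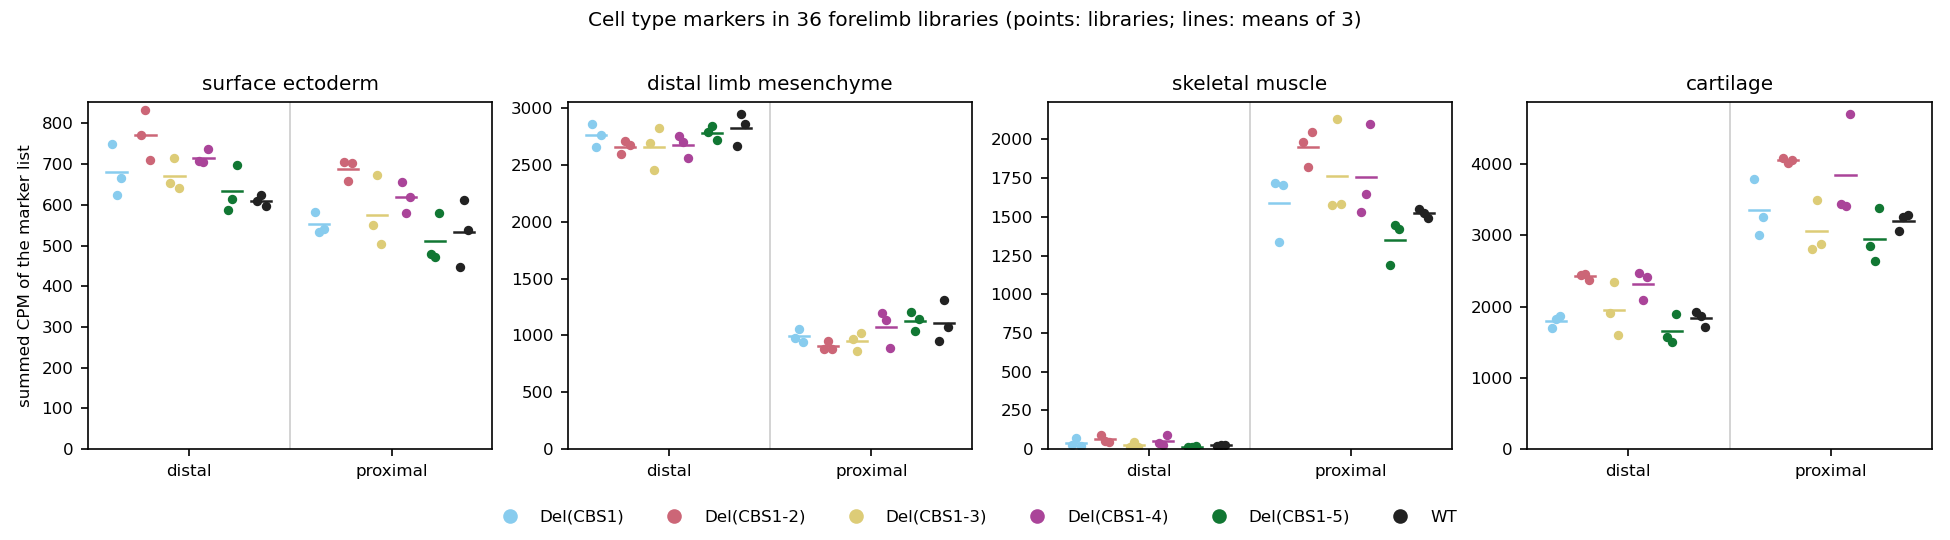
Summed CPM of 4 marker lists in every library, for distal and proximal forelimb and 6 genotypes (points are libraries, lines the means of 3). The ectoderm sums of distal Del(CBS1-2) and Del(CBS1-4) lie at or above 705 CPM and those of distal WT between 596 and 625 CPM, while distal muscle sums stay at or below 90.3 CPM. The distal ectoderm sums of the other alleles lie between 588 and 748 CPM.

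Distal Wnt7a had a higher mean in all 5 alleles than in WT, with 14.6 CPM in Del(CBS1), 15.8 CPM in Del(CBS1-2), 13.8 CPM in Del(CBS1-3), 17.3 CPM in Del(CBS1-4) and 12.9 CPM in Del(CBS1-5), against 11.9 CPM in WT, and none of these differences was called by edgeR. The libraries had 16.3, 16.6 and 14.5 CPM in distal Del(CBS1-2) and 18, 15.8 and 18 CPM in distal Del(CBS1-4), against 10.5, 14.5 and 10.9 CPM in distal WT. Del(CBS1-4) did not overlap WT, while the lowest library of Del(CBS1-2) was level with the highest of WT and lay below it in FPKM (3.09 against 3.10 FPKM). The changes of 0.39 ± 0.14 in Del(CBS1-2) (adjusted p = 0.0757) and 0.53 ± 0.14 in Del(CBS1-4) (adjusted p = 0.0932) did not pass. Both passed without distal WT replicate 2 (0.55 ± 0.14, adjusted p = 0.0273, and 0.68 ± 0.14, adjusted p = 0.0193), and the change in Del(CBS1-4) also passed in DESeq2 (0.53 ± 0.15, adjusted p = 0.0285). The surface ectoderm sums given for Fgf8 differed in the same direction as Wnt7a. With the surface ectoderm markers as a covariate the change was 0.11 ± 0.18 in Del(CBS1-2) (adjusted p = 0.875) and 0.30 ± 0.16 in Del(CBS1-4) (adjusted p = 0.919). With the muscle markers it was 0.27 ± 0.16 (adjusted p = 0.411) in Del(CBS1-2) and 0.45 ± 0.14 (adjusted p = 0.312) in Del(CBS1-4). The mean ectoderm level of both alleles lay above distal WT without overlap (4.90 to 5.04 and 4.84 to 5.02, against 4.74 to 4.81 log2 CPM). The ectoderm fits, and the muscle fit of Del(CBS1-2), therefore cannot separate the marker level from the genotype.

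Fgf9 had 11.6, 10.9 and 11.3 CPM in distal Del(CBS1-4), against 5.81, 11.4 and 7.24 CPM in distal WT, where replicate 2 reached the level of the allele. The change of 0.46 ± 0.21 did not pass (adjusted p = 0.291), and without distal WT replicate 2 it was 0.78 ± 0.19 (adjusted p = 0.0359). That WT library was the lowest of its group in Fgf8 and the highest in Fgf9 and Wnt7a. By its number it shares an embryo with proximal WT replicate 2. That proximal library was also the lowest of its group in Fgf8 (1.75 CPM) and the highest in Wnt7a (10.5 CPM), but the lowest in Fgf9 (13.3 CPM).

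The ridge factors and Edar differed little from WT, and none of them was called. In distal tissue Sp8 ran from -0.24 ± 0.17 in Del(CBS1-2) to 0.26 ± 0.17 in Del(CBS1-3), and Edar from -0.16 ± 0.14 in Del(CBS1) to 0.10 ± 0.14 in Del(CBS1-5). Sp6 ran from -0.22 ± 0.12 in Del(CBS1-2) to 0.25 ± 0.12 in Del(CBS1). In distal Del(CBS1) Sp6 had 18.8, 17.9 and 18.8 CPM, against 14.3, 15.3 and 17.1 CPM in WT, without overlap and without a call (adjusted p = 0.519). Bhlha9 had the smallest range of group means, from 7.22 CPM in Del(CBS1-2) to 7.99 CPM in Del(CBS1-5), beside 7.66 CPM in WT. Its 95% intervals against WT reached from -0.59 to 0.53 over the 5 alleles, so the data allow changes within that range. En1 was highest in distal Del(CBS1-5), where 3 of 3 libraries lay above all distal WT libraries (0.34 ± 0.18, adjusted p = 0.447).

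**Figure D4:**
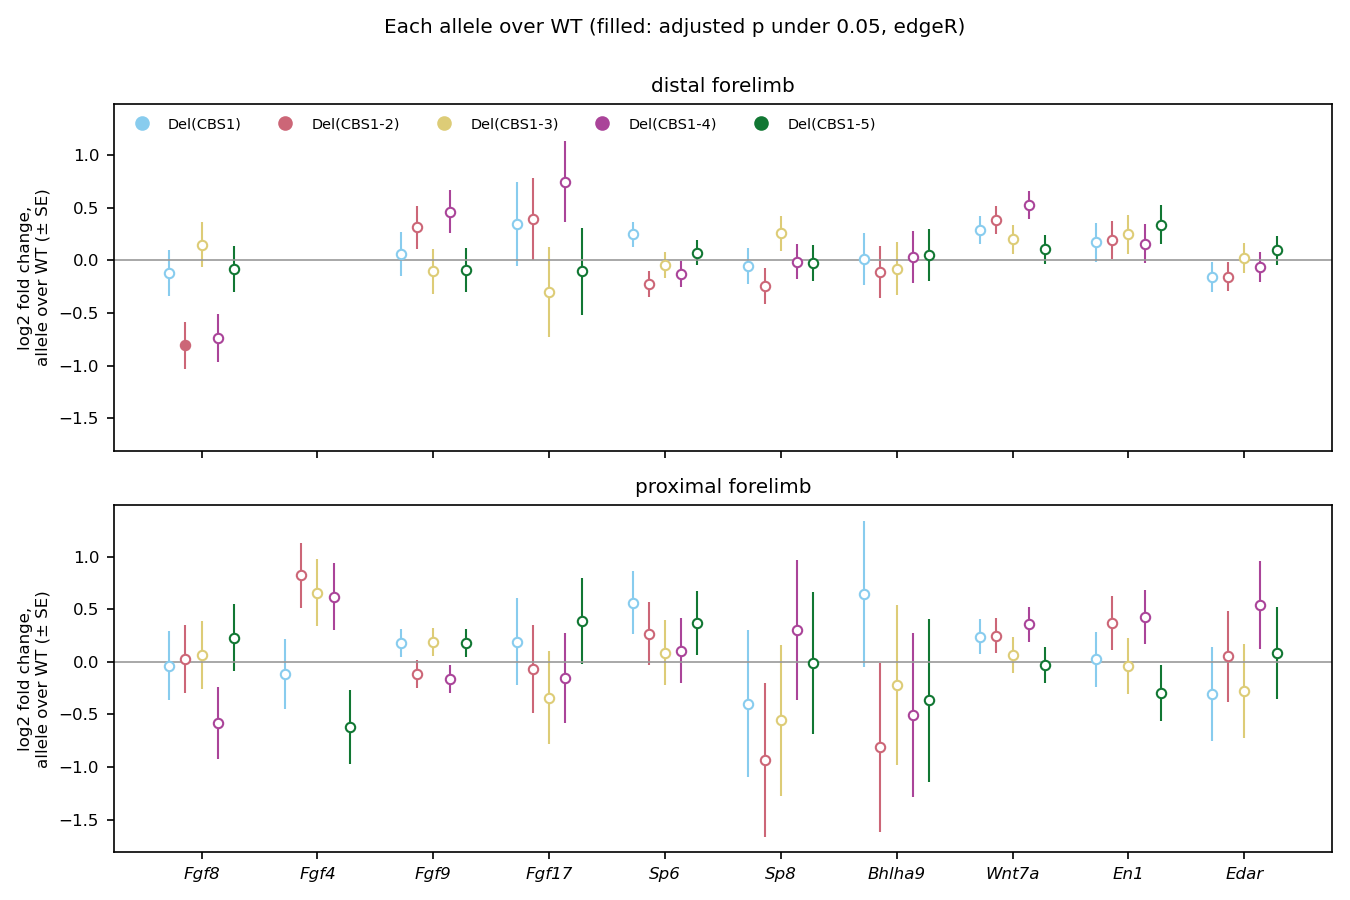
Log2 fold change of each allele over WT for each gene, in distal and proximal forelimb; points are estimates, bars 1 SE, and the filled point has an adjusted p under 0.05 in edgeR's quasi-likelihood test. Fgf8 in distal Del(CBS1-2), at -0.81, is the filled point, and Fgf4 is absent from the distal panel because it was not tested there.

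In proximal tissue edgeR called 0 of 10 genes in any allele, beside 0.0443% of all genes in Del(CBS1), 0.721% in Del(CBS1-2), 0.0696% in Del(CBS1-3), 0% in Del(CBS1-4) and 0.0696% in Del(CBS1-5). DESeq2 called 0 of the 7 to 10 genes to which it gave an adjusted p, which leaves out Del(CBS1-3), where it gave none of them one, and limma called 0 of the 7 genes that passed the FPKM filter (Fgf17, Sp8 and Edar did not). An unadjusted p under 0.05 was reached once, by Fgf4 in Del(CBS1-2), where 19.5% of all genes reached it. There Fgf4 had 3.56, 2.42 and 2.54 CPM, against 1.4, 2.0 and 1.36 CPM in proximal WT, a change of 0.82 ± 0.31 (adjusted p = 0.155) without overlap of the groups. Proximal Del(CBS1-5) had the lowest Fgf4 level, with 0.995, 0.968 and 1.17 CPM, all below WT (-0.62 ± 0.35, adjusted p = 0.792). Muscle markers summed to 1824 to 2045 CPM in proximal Del(CBS1-2) and 1186 to 1445 CPM in proximal Del(CBS1-5). In proximal WT they summed to 1494 to 1550 CPM. With the muscle markers as a covariate edgeR called 0 genes in both alleles, as without it. These counts do not show the part of muscle in the Fgf4 values. Sp8, Bhlha9 and Edar had wide intervals in proximal tissue. Their SE were 0.66 to 0.73, 0.69 to 0.80 and 0.42 to 0.45 on the log2 scale. Proximal WT replicate 2, shared by all these comparisons, was the highest proximal WT library in each of these genes. Proximal WT ran from 0.388 to 3.32 CPM in Sp8, 0.0777 to 1.13 CPM in Bhlha9 and 0.621 to 3.19 CPM in Edar. Leaving out 1 library moved Bhlha9 in Del(CBS1) between 0.19 and 1.77 and Edar in Del(CBS1-2) between -0.32 and 0.85, without a call.

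Whether an allele acted differently on the 2 tissues was tested as an interaction over all 36 libraries. None of the 10 genes was called in any allele, beside 0% of all genes in Del(CBS1), 0.0491% in Del(CBS1-2), 0.00614% in Del(CBS1-3), 0.0184% in Del(CBS1-4) and 0% in Del(CBS1-5) by edgeR. Neither DESeq2, which gave the 10 genes no adjusted p in Del(CBS1-2), nor limma, on 9 of them, called any. Proximal WT replicate 2 is part of these fits too. The Edar interaction in Del(CBS1-4) ran from -1.40 to -0.19 when 1 library was left out, without a call. An unadjusted p under 0.05 was reached by Fgf8 in Del(CBS1-2) (-0.81 ± 0.39, adjusted p = 0.436), beside 11.1% of all genes, and by Fgf9 in Del(CBS1-4) (0.63 ± 0.25, adjusted p = 0.669), beside 6.11%. The drop of distal Fgf8 in Del(CBS1-2) is thus not shown to differ from the proximal change of 0.02 ± 0.32.

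The distal libraries were then searched for genes that varied with the 10. The levels of Fgf8 and Fgf9 ran against each other over the 18 distal libraries (Pearson r = -0.79 of log2 CPM), as did those of Fgf8 and Wnt7a (r = -0.73), while Fgf9 and Wnt7a ran together (r = 0.86). Of the 28 pairs among the 8 better counted genes (all but Fgf4 and Fgf17), those of Fgf8 and Edar (r = 0.64), Fgf8 and Sp6 (r = 0.54) and Sp8 and Bhlha9 (r = 0.54) came next on the positive side. These are descriptions over libraries that share dissection, depth and genotype, and they include the group differences given above. In a search of 11681 genes, Fgf8 was most like Slc25a33 (r = 0.88), Dusp6 (r = 0.88), which encodes a phosphatase induced by FGF signalling, and Gja3 (r = 0.86). Fgf9 was most like Sgms2 (r = 0.91), Eef2k (r = 0.89) and the fibrillin gene Fbn1 (r = 0.88), and Wnt7a most like the chemokine gene Cxcl14 (r = 0.89), Arhgap24 and Car12 (r = 0.88 each). Likeness was weaker for the others: Sp6 with Zfp961, Arl5a and Greb1 (r = 0.84 each), Sp8 with Ube4b, Dnmbp and Cx3cl1 (r = 0.81, 0.77 and 0.75), and Bhlha9 with Hrob, Ttc39c and Dele1 (r = 0.79, 0.77 and 0.75). En1 was nearest to Ubxn8, Surf6 and Aamdc (r = 0.79, 0.68 and 0.67) and Edar to Mrm3, Bag2 and Gadd45a (r = 0.73, 0.71 and 0.70).

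**Figure D5:**
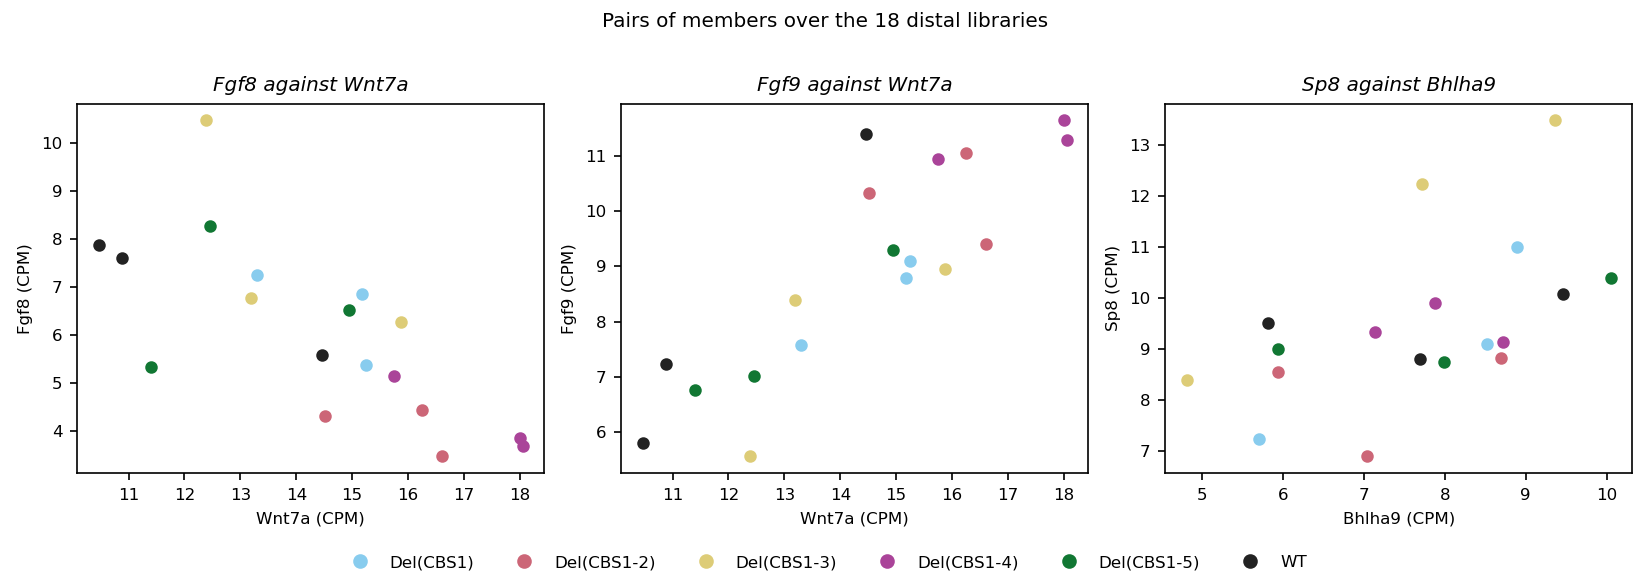
Levels in CPM over the 18 distal libraries, coloured by genotype, of Fgf8 against Wnt7a, Fgf9 against Wnt7a and Sp8 against Bhlha9. Fgf8 is lowest and Fgf9 high where Wnt7a is highest, in Del(CBS1-4) and Del(CBS1-2), and distal WT replicate 2 (Wnt7a 14.5 CPM) lies nearer to those alleles than the other WT libraries do.

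Lists of related genes, also chosen with earlier results of these data known, give the setting of the 10. Between the WT tissues, 12 of 23 tested ridge and ectoderm signals and factors were higher in distal tissue and 5 lower, with a median log2 fold change of 0.34 beside 0.005 over all genes. The counts of this and the next lists stand beside 13.6% of all genes called higher and 17.1% called lower in WT. The homeobox genes Msx1 (3.64 ± 0.63), Msx2 (2.89 ± 0.31), Dlx2 (1.72 ± 0.18), Dlx6 (1.72 ± 0.30) and Dlx3 (0.87 ± 0.15) rose, and the signal gene Wnt4 fell by 0.77 ± 0.11. Msx1 is also transcribed in distal mesenchyme and stands in that marker list. Of the surface ectoderm markers, Krt14 (0.84 ± 0.16), Krt17 (0.90 ± 0.16), the adhesion gene Epcam (0.74 ± 0.09), Cldn6 (0.73 ± 0.13) and Perp (0.51 ± 0.09) were higher in distal tissue. The keratin gene Krt15 was lower by far, with 9.14 CPM in distal and 73.8 CPM in proximal WT tissue (-3.02 ± 0.09), and the other lower marker was Krt18 (-0.58 ± 0.17), named after its value was seen.

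Around Edar, 4 of 7 tested genes of the EDA pathway list were higher in distal WT tissue and 0 lower (median 0.31). These were Lef1 (1.04 ± 0.08), a nuclear partner of beta-catenin, Wnt10b (0.84 ± 0.24), the adaptor gene Edaradd (0.71 ± 0.20) and the receptor gene Tnfrsf19 (0.31 ± 0.06). Of the other FGF ligands and receptors, 2 of 12 were higher, a share near that of all genes, and 5 lower (median -0.24). Fgf10, the mesenchymal ligand that maintains ridge Fgf8, rose by 0.99 ± 0.11 and the receptor gene Fgfr2 by 0.40 ± 0.07. Fgfr4 (-3.23 ± 0.32), Fgf7 (-1.80 ± 0.33), Fgf18 (-1.45 ± 0.11) and Fgfr1 (-0.29 ± 0.05) fell. Of 14 FGF feedback and target genes, 3 were higher and 3 lower (median -0.09), shares near those of all genes. Mycn (1.51 ± 0.10), Cyp26b1 (1.37 ± 0.08) and Il17rd (0.30 ± 0.05) rose, and Spry2 (-1.0 ± 0.07), Spred3 (-0.71 ± 0.10) and Spry4 (-0.48 ± 0.08) fell. In the list of SHH, GREM1 and mesenchymal feedback, 2 of 7 were higher and 4 lower (median -0.42), with Gli3 up by 0.67 ± 0.13 beside Fgf10, and with Grem1 (-2.05 ± 0.25), Gli1 (-0.63 ± 0.14), Hand2 (-0.42 ± 0.11) and Ptch1 (-0.31 ± 0.09) lower.

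Among the 10 comparisons of alleles with WT, genes of these 6 lists were called in Del(CBS1-2) and in no other allele by edgeR. In distal Del(CBS1-2) 10.5% of all genes tested were called, 4.47% higher and 5.99% lower. Of the surface ectoderm markers 5 of 20 rose and 0 fell in distal tissue (median 0.21, beside -0.004 over all genes), among them Sfn (0.59 ± 0.13), Cldn4 (0.52 ± 0.09), Krt5 (0.52 ± 0.13) and Krt14 (0.47 ± 0.10). In distal tissue 4 of 24 ridge and ectoderm genes rose, namely Msx1 (0.50 ± 0.10), Dlx3 (0.49 ± 0.11), Bmp7 (0.39 ± 0.08) and the Notch ligand gene Jag2 (0.33 ± 0.08). Flrt3, named after its value was seen, fell by 0.26 ± 0.08. Etv5 (0.35 ± 0.08) and Spry1 (0.35 ± 0.08) rose and Dusp6 fell by 0.31 ± 0.08 among 14 FGF feedback and target genes, so these targets did not move together. Fgfrl1 (0.26 ± 0.06) and Fgfr1 (0.20 ± 0.05) rose, Fgf7 fell by 1.47 ± 0.43, Nfkbia of the EDA pathway list rose by 0.29 ± 0.07, and 0 of 7 genes were called in the SHH and GREM1 list. In proximal Del(CBS1-2) Tnfrsf19 rose by 0.34 ± 0.06 and Dusp6 fell by 0.46 ± 0.09, the only calls of these lists there. Over all genes tested, 0.721% were called in proximal Del(CBS1-2).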

How the data were processed

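Sample titles gave each library's group and replicate number. The authors deposited unnormalised read counts, as whole numbers for each Ensembl gene. The deposited FPKM values, a second table over these 36 libraries, are scaled for transcript length and depth. The libraries were poly(A) TruSeq Stranded libraries read as single ends of 50 nucleotides, per the labels' protocols. The submitters' processing notes list STAR 2.7.0 and cutadapt 1.16, with Cufflinks 2.2.1, mm10 and bedtools 2.27.1. How reads were counted (strand, features) is not given in the sources used here. The count table lacks the 4222 genes of chromosomes X, Y and M, so Eda and Eda2r of the EDA pathway list have no count. Columns were matched by title, and 0 were left without a sample.

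Counts were tested with edgeR 4.0.16 in R 4.3.3 (glmQLFit and glmQLFTest, TMM scaling, filterByExpr by group), and called where p, adjusted by Benjamini-Hochberg over every gene tested, was under 0.05. Tissues were compared within the 6 libraries of a genotype, alleles with WT in 1 fit per tissue (18 libraries), and interactions in 1 fit of 36 libraries. FPKM was used for levels between genes and in limma 3.58.1. Alternatives were DESeq2 1.42.0, RLE scaling, no count filter, limma on log2(FPKM + 0.1) and log2(FPKM + 1) for genes with at least 0.5 FPKM in 3 libraries, the replicate block, 6 libraries in place of 18, marker scores as covariates, and leaving out each replicate. The scripts were tested on simulated data.

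The members and lists were chosen with earlier results of these data known. Named are all 10 genes, of each list up to 4 called genes with the smallest p (6 between WT tissues), and the 3 genes most like each member by Pearson r of log2 CPM (prior count 2) over the distal libraries, among genes averaging 50 counts or more. The exceptions are Krt18 and Flrt3. Same-numbered distal and proximal libraries deviated together from their group means in 18 of 18 pairs (r = 0.162 to 0.503), each best with its own number, so these numbers pair the tissues of an embryo. Within a tissue each library came from a different embryo, so the p-values of alleles against WT measure the spread among embryos. The sample titles give no litter and no stage finer than E12.5. An allele effect therefore cannot be told apart from a difference in litter or exact stage between the groups. The reported tissue and interaction tests treated the paired libraries of an embryo as independent. Their p-values do not measure the spread of the tissue difference among embryos, for which the replicate block is the alternative.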

Additional observations from a re-analysis of the deposited data

How the results depend on the processing

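Of 2916 values of the 10 genes with an adjusted p under the alternatives, 2658 kept their sign and their side of the threshold, 10 lost the call and 12 gained one. A further 236 changed sign, all of them values called neither in the reported fit nor in the alternative, and 0 called values changed sign. DESeq2 gave no adjusted p for 28 values. Counts of called genes equalled the reported count or stayed within 1.5 times of it in 181 of the alternatives and moved in 11. Most of the 181 set a count of 0 beside a reported count of 0, as in proximal tissue and the interactions, where no ratio applies. In distal Del(CBS1-2) against WT, where 1 gene was called, 0 were called with the surface ectoderm or the skeletal muscle score as covariate, and 0 to 2 when 1 library was left out; the cause was not tested. In distal Del(CBS1-4) against WT, where 0 were called, DESeq2 called 1 (Wnt7a), the fit with no count filter 2 (Wnt7a, 0.52, adjusted p = 0.00707, and Fgf8, -0.74, adjusted p = 0.0140), and leaving out 1 library 0 to 2; the cause was not tested. Without the count filter Wnt7a was also called between the WT tissues (0.56, adjusted p = 0.0365), and Fgf9 between the Del(CBS1-4) tissues was called without proximal replicate 1 (-0.42, adjusted p = 0.0302).

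With the replicate block, which pairs the tissues of an embryo, 8 genes were called between the WT tissues, against 7 without it, and 41 gene by genotype calls were made in the alleles. It changed no call other than those of Wnt7a in WT and En1 in Del(CBS1-3). Between alleles and WT the numbers do not pair the libraries: of 15 same-numbered pairs in each tissue, 2 had a correlation over 0.1 in distal and 2 in proximal tissue, and 4 and 6 correlated best with their own number. There the block left 1 call in distal Del(CBS1-2) (Fgf8, -0.81, adjusted p = 0.0435) and 0 elsewhere.

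Depth limits Fgf4 in distal tissue (0 to 5 counts), Fgf17 in both tissues, and Bhlha9 and Sp8 in proximal tissue, where their WT libraries also differed widely.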
